A study of Homo sapiens with 14 samples.

Results

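The *ZNF385* family comprises 4 genes, *ZNF385A*, *ZNF385B*, *ZNF385C* and *ZNF385D*, which were taken by symbol from the 2 RNA-seq tables of a study of PAX6 in neuroendocrine (NE) prostate cancer. They are 4 of 24199 features in the DU145 table and 4 of 44591 genes in the LNCaP table. The family was chosen by measured expression values, those of *ZNF385A* in DU145 cells (lower with PAX6 knockdown) and of *ZNF385B* in LNCaP cells (lower after culture in enzalutamide), and its other members are their paralogs. Both contrasts therefore entered the choice, and the members' values in them are given as a description, with no test.

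The samples were 2 human prostate cancer cell lines. LNCaP is androgen sensitive, and was sequenced as 1 library of wild-type control cells and 1 library of LNCaP-ENZ cells, an enzalutamide resistant phenotype obtained by long culture in 20 µM of this prostate cancer drug (30 days in the design text of the series). DU145, an androgen insensitive line, was sequenced as 3 shCON libraries, labelled wild type and carrying a non-target hairpin according to the methods of the study, and 3 shPAX6 libraries, labelled *PAX6* knockdown. Per the same methods, both DU145 lines were infected with lentivirus and then selected with puromycin. The methods name 2 *PAX6* hairpins, and the labels do not say which was sequenced or whether the 3 libraries came from separate cultures, so the spread between libraries may be technical. Of 5 prostate luminal markers, *KLK3*, the gene of prostate-specific antigen, had 1817 and 1186 counts in LNCaP control and LNCaP-ENZ cells, whereas 3 of the 5 (*KLK2*, *FOLH1* and *TMPRSS2*) were listed at 0 in every DU145 library. The summed level of 4 epithelial markers ran from 1525 to 1654 FPKM in shCON and from 1135 to 1816 FPKM under shPAX6, most of it from *KRT8* and *KRT18*. The other 2 had lower shPAX6 values without overlap, against 20% of all tested features. *CDH1*, the gene of E-cadherin, was at 6.27, 5.23 and 6.91 FPKM in shCON and 0.654, 1.56 and 1.57 FPKM under shPAX6 (limma adjusted p = 0.033, with 0 features called under the replicate block). *EPCAM*, an epithelial adhesion molecule, was at 11.7, 11.6 and 11.5 FPKM against 7.08, 6.75 and 6.71 FPKM (limma adjusted p = 0.054). The part of these marker differences in the members' values was not tested.

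The ZNF385 proteins carry zinc fingers of the U1 or matrin type, a class that binds double-stranded or structured RNA as well as DNA. *ZNF385A*, also named *HZF*, is known for favouring cell cycle arrest genes, such as *CDKN1A* and *SFN*, over apoptosis genes in the response to DNA damage. ZNF385A also binds the mRNA of the IP3 receptor ITPR1 in neurons and acts in adipocyte differentiation through C/EBPα. *ZNF385B* has been linked to apoptosis in B cells, and less is known of *ZNF385C* and *ZNF385D*.

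All 4 genes lie on the minus strand of GRCh37. In the authors' LNCaP table, *ZNF385A* (ENSG00000161642) spans chr12:54762913-54785089, *ZNF385B* (ENSG00000144331) chr2:180306709-180726232, *ZNF385C* (ENSG00000187595) chr17:40177594-40190044 and *ZNF385D* (ENSG00000151789) chr3:21462490-21792816. The spans are therefore unlike, with 22177 bases for *ZNF385A* and 419524 bases for *ZNF385B*, although the exon lengths used for TPM were 2776 and 4336 bases. The GENCODE annotation lifted to GRCh37 gave *ZNF385C* 72904 bases, up to position 40250497, against 12451 bases in the authors' table. Reads from the upstream exons of the longer *ZNF385C* model lie outside the span listed for LNCaP. The members share little sequence, as 0 of 3439 50-base words of *ZNF385A* transcripts and 0 of 5728 of *ZNF385B* transcripts occurred in another member.

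The RefSeq promoter table (GRCh38.p14) held 9 start sites for 3 members (5 for *ZNF385B*, 3 for *ZNF385C* and 1 for *ZNF385D*). The 250 bases before each start matched the GRCh37 genome once. These windows were searched on both strands for AGAACA, the core motif of steroid hormone response elements, TTCACGC, a core of the paired domain motif of PAX6, the knockdown target, and TTCNNNGAA, the motif of STAT factors, to which STAT5A of this study belongs. AGAACA was present in 2 of the 9 windows, and in 12.4% of all 35116 RefSeq windows of this length. TTCACGC and TTCNNNGAA were present in 0 of the 9, against 1.10% and 6.57% of all windows. A match is only a match of letters. Printed here are 3 windows of *ZNF385B* and *ZNF385C*, the members with the largest ratios in LNCaP. The first window of *ZNF385B*, chr2:180726340-180726589 on the minus strand, adjoins the 5′ end of the annotated gene. It held 18 CpG dinucleotides (capitals), against a median of 11 over all windows, and none of the motifs.
ZNF385B first start: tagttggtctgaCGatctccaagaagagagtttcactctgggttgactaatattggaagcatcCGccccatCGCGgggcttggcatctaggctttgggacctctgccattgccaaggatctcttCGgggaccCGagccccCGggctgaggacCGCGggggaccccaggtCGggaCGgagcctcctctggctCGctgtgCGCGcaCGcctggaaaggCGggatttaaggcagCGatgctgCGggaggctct
Another *ZNF385B* window, chr2:180450634-180450883, lies within the gene and held 1 AGAACA on the reverse strand, 9 bases before the start (capitals).
ZNF385B internal start: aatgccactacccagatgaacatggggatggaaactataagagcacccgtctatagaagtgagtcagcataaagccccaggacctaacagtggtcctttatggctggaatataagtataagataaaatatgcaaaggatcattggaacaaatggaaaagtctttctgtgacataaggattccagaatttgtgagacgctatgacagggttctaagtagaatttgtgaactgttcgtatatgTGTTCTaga
The *ZNF385C* window chr17:40205898-40206147 lies in the longer gene model only. It held AGAACA on both strands, 210 and 199 bases before the start (capitals), as an inverted repeat with the bases tgccc in between. Whether this pair is a hormone response element was not tested.
ZNF385C internal start: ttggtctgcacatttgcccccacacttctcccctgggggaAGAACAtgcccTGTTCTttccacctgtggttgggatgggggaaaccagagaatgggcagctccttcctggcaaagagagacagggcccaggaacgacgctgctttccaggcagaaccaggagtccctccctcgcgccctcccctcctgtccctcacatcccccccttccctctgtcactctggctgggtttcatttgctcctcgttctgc
The deposited values are per gene, so they do not say which of these starts was used.

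*ZNF385A* was the member with the highest level in every library, and was lower in shPAX6 than in shCON cells. The DU145 values, deposited without a named unit, were read as FPKM, a level scaled by transcript length and library size. *ZNF385A* was at 9.95, 10.4 and 10.7 FPKM in the shCON libraries and at 3.72, 3.41 and 3.44 FPKM in the shPAX6 libraries. The 2 groups did not overlap, and the lowest shCON library lay 6.23 FPKM above the highest shPAX6 library. The means were 10.4 ± 0.40 and 3.52 ± 0.17 FPKM (SD, n = 3 per group), 2.95-fold apart, and the log2 fold change on the log2(FPKM + 0.1) scale was -1.53 (SE 0.15). Ordered by this difference, *ZNF385A* was 128th from the lowest of 13574 tested features. In bulk RNA, fewer cells with a transcript and less transcript per cell cannot be told apart.

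The log2 fold changes in DU145 were also lower in genes of higher GC content (Spearman rho -0.36 over 12009 features, which share libraries and are not replicates), and the longest transcript of *ZNF385A* is 63.2% GC. The 478 tested features within 1 GC point of it had a median log2 fold change of -0.33, against -0.12 for all tested features (0.058 after median centring, which gave *ZNF385A* -1.36). After a GC correction within each library, the *ZNF385A* difference was -1.16. The part of GC content in the difference was not tested further.

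*ZNF385B* was low in DU145, and the knockdown libraries lay under the controls there too. Its level was 0.591, 0.761 and 0.547 FPKM in shCON and 0.0907, 0.116 and 0.354 FPKM under shPAX6. The groups did not overlap, but the gap between them was only 0.193 FPKM. On this scale shPAX6 library 3 lay nearer to the lowest control than to either of the other shPAX6 libraries. The means were 0.633 ± 0.11 and 0.187 ± 0.15 FPKM (SD, n = 3 per group). Since the mean over all libraries, 0.410 FPKM, is under the filter of 0.5 FPKM, *ZNF385B* is not among the tested features. In a fit without the filter its log2 fold change was -1.46 (SE 0.40), and with a pseudocount of 1 FPKM it shrank to -0.47.

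*ZNF385C* differed less. It was at 1.93, 1.21 and 1.51 FPKM in shCON and 0.798, 1.31 and 1.07 FPKM under shPAX6. The highest shPAX6 library lay above the lowest shCON library, so the groups overlapped. The log2 fold change was -0.51 (SE 0.29) and -0.19 after the GC correction. *ZNF385D* was listed at 0 in all 6 DU145 libraries. In all, 2 of the 4 members passed the filter on low values and 1 of these 2 had lower shPAX6 values without overlap, against 20% of all tested features. That member is *ZNF385A*, whose values chose the family, so nothing is read from this count.

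PAX6, the targeted gene, was at 0.839, 1.23 and 1.57 FPKM in shCON and at 0.0153, 0.274 and 0.0778 FPKM under shPAX6. shPAX6 library 2 had the highest of these *PAX6* values. *ZNF385A* was at 3.41 FPKM there and at 3.44 FPKM in shPAX6 library 3, closer together than the shPAX6 SD of 0.17 FPKM. With *ZNF385A* values this near and *PAX6* this low, nothing is read from the order of the knockdown libraries.

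**Figure D1:**
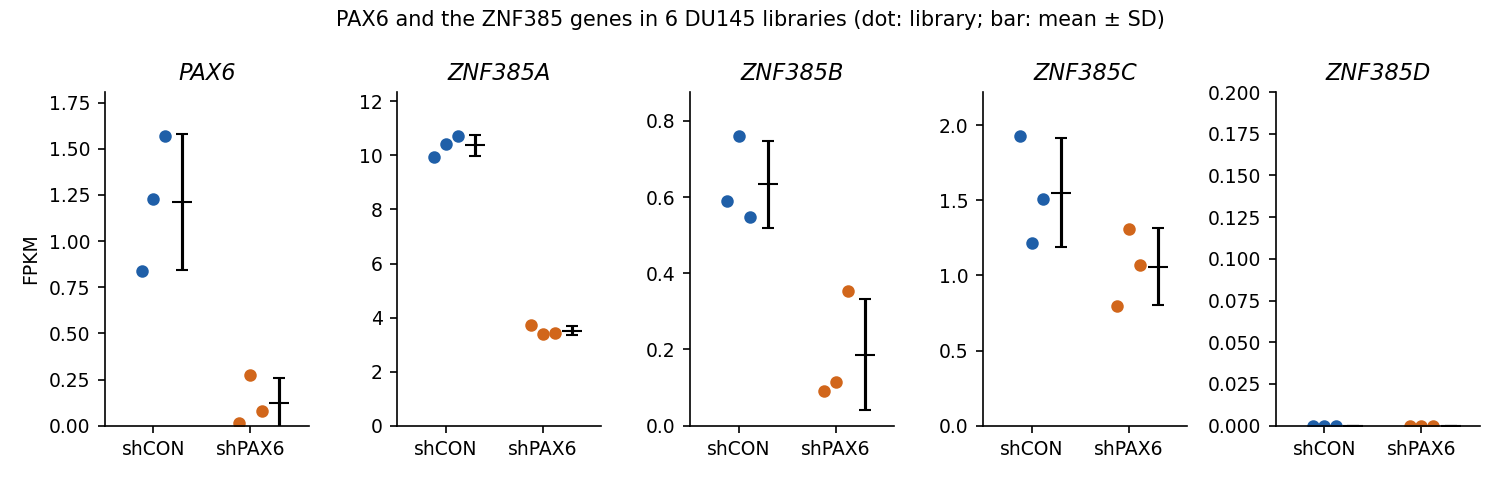
FPKM of *PAX6* and the 4 *ZNF385* genes in each DU145 library (dots, linear axis from 0, a separate scale per gene), with mean ± SD (bars, n = 3). *ZNF385A* separates into about 10 and about 3.5 FPKM, *ZNF385C* overlaps between the groups, and *ZNF385D* is at 0 throughout.

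In LNCaP cells the pattern of the family was another. *ZNF385B* was nearly as abundant as *ZNF385A* in control counts and far lower in LNCaP-ENZ cells, *ZNF385A* was slightly lower, and *ZNF385C* was higher. Counts were scaled by the library totals of 20468001 and 17945722 and are given as CPM. With 1 library per arm the differences have no replicate check, and the 95% exact Clopper-Pearson intervals cover counting error only.

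*ZNF385B* had 733 counts in control and 35 counts in LNCaP-ENZ cells. These are 35.8 CPM (interval 33.3 to 38.5) and 1.95 CPM (1.36 to 2.71), so the intervals are far apart. The control level was 18.4-fold higher (13.1 to 26.6), and the log2 ratio of CPM + 0.1 was -4.13 (-4.73 to -3.71). This was the 9th lowest ratio of 19235 genes with at least 10 counts, and only 1 of the 6739 genes with as many counts as *ZNF385B* had a lower ratio. Past a 2-fold difference lay 17.3% of these 19235 genes, made up of 13.5% at a lower and 3.76% at a higher level in LNCaP-ENZ cells.

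*ZNF385C* had 13 counts in control and 46 in LNCaP-ENZ cells, or 0.635 CPM (0.338 to 1.09) and 2.56 CPM (1.88 to 3.42). Its level was 4.04-fold higher in LNCaP-ENZ cells (2.14 to 8.14) and its log2 ratio was 1.86 (1.10 to 3.03), the 150th highest of the 19235. *ZNF385A* had 789 and 526 counts, or 38.5 CPM (35.9 to 41.3) and 29.3 CPM (26.9 to 31.9). Its log2 ratio of -0.39 (-0.56 to -0.23) compares with a median of -0.15 over genes with a mean of at least 1 CPM, and became -0.25 with TMM scaling. *ZNF385D* had 1 and 0 counts, under the floor of 3 counts (0.147 CPM in control and 0.167 CPM in LNCaP-ENZ cells), so no ratio is given. Thus 3 of the 4 members had at least 10 counts. Of these, 1 lay past 2-fold lower and 1 past 2-fold higher, against 13.5% and 3.76% of all genes with that many counts. The lower one is *ZNF385B*, whose values chose the family, so nothing is read from these counts. *PAX6* itself had 11 and 4 counts, with an interval of the log2 ratio from -3.38 to 0.49.

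**Figure D2:**
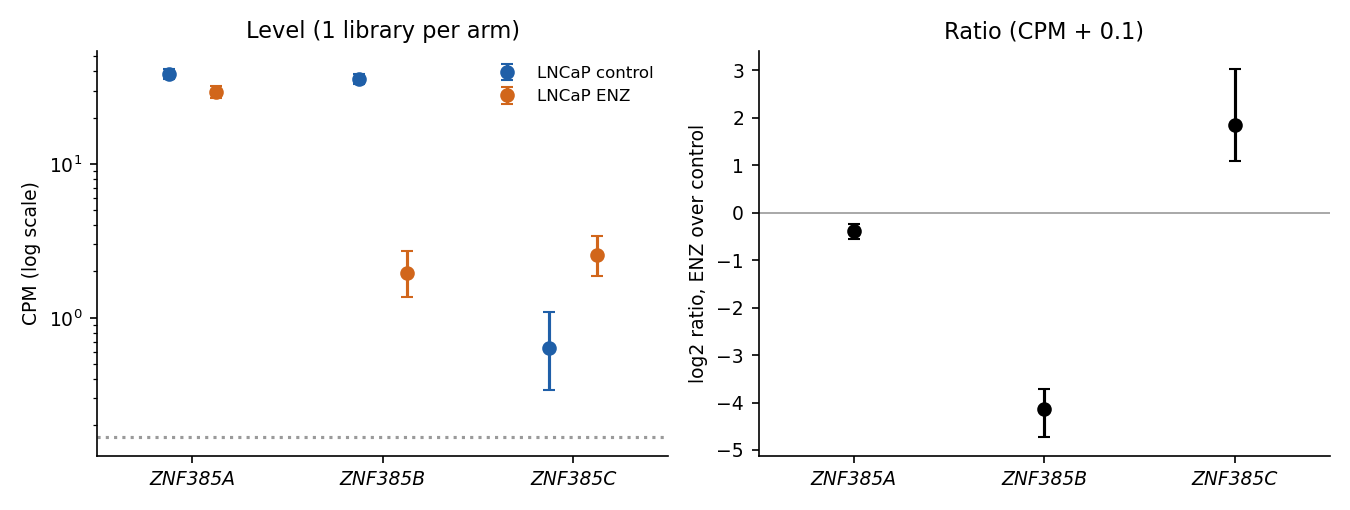
Left, CPM (log axis) of 3 *ZNF385* genes in the LNCaP control (blue) and LNCaP-ENZ (orange) library with 95% Clopper-Pearson intervals, and the LNCaP-ENZ floor of 3 counts (0.167 CPM, dotted). Right, log2 ratio of CPM + 0.1 with its 95% interval. *ZNF385B* lies at -4.13, *ZNF385A* at -0.39 and *ZNF385C* at 1.86.

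**Figure D3:**
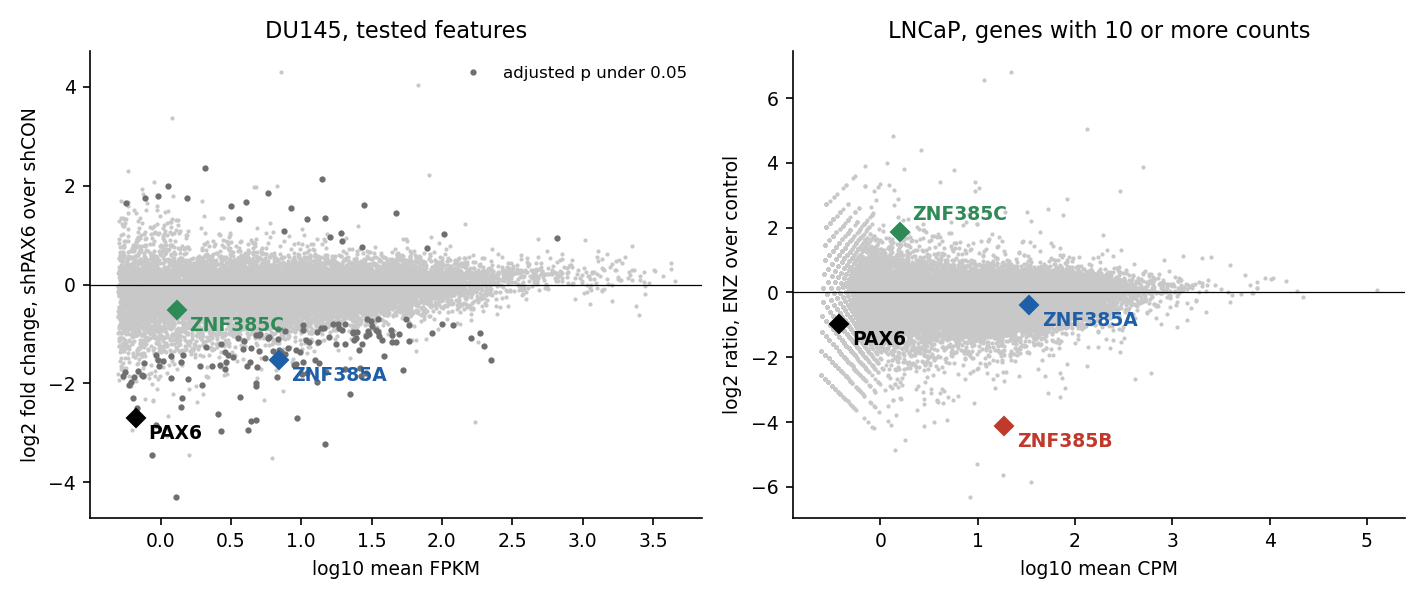
Every tested feature as a point, log2 difference (vertical) against log10 mean level (horizontal), for DU145 (left, dark points have a limma adjusted p under 0.05) and LNCaP (right, 1 library per arm), with *PAX6* and the members as diamonds. *ZNF385B* stands under nearly all LNCaP genes of its level, and *ZNF385B* is absent from the DU145 plot since it did not pass the filter.

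The order of the members was compared on the scales per length, TPM in LNCaP and FPKM in DU145. In LNCaP control cells it was *ZNF385A* (14.5 TPM), *ZNF385B* (8.62 TPM), *ZNF385C* (0.255 TPM) and *ZNF385D* (0.0281 TPM). The counting intervals of *ZNF385C* (0.136 to 0.437 TPM) and *ZNF385D* (0.000713 to 0.157 TPM) overlapped, and those of the other neighbours did not. In LNCaP-ENZ cells *ZNF385C* (0.971 TPM, 0.711 to 1.30) had passed *ZNF385B* (0.442 TPM, 0.308 to 0.615), under *ZNF385A* at 10.4 TPM. In DU145 the order was *ZNF385A*, *ZNF385C*, *ZNF385B* and *ZNF385D* in every library of both groups, and the lowest *ZNF385C* value lay above the highest *ZNF385B* value within each group.

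The 2 tables were normalized separately, so levels were set side by side only as ranks among the 18808 genes found in both. *ZNF385B* exceeded 71.5% of these genes in LNCaP control cells and 39.0% in LNCaP-ENZ cells, and between 37.8% and 40.6% in the DU145 shCON libraries. The LNCaP-ENZ rank of *ZNF385B* thus lay within the range of the DU145 controls and above that of the shPAX6 libraries (31.4% to 37.2%). Such low levels differ little in rank, as 0.0907 FPKM in shPAX6 library 1 already exceeded 31.7% of genes. *ZNF385C* exceeded 33.6% of genes in LNCaP control, 45.1% in LNCaP-ENZ, between 44.2% and 47.6% in shCON and between 43.7% and 44.2% in shPAX6 cells. Its LNCaP-ENZ value lay inside the shCON range. *ZNF385A* exceeded 80.5% and 77.3% in LNCaP, between 69.7% and 71.3% in shCON and between 53.6% and 60.4% in shPAX6 cells, so its LNCaP-ENZ value lay above both DU145 ranges.

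The features whose levels followed *ZNF385A* most closely over the 6 DU145 libraries were *PALM* (Pearson r = 0.999), *OASL* (r = 0.998), the unnamed assembled transcript newGene_657 (r = 0.998), *SEZ6L2* (r = 0.998) and *EPCAM* (r = 0.998), on log2(FPKM + 0.1). These points share 2 groups that differ, which alone gives a high r. *PALM*, which encodes the membrane protein paralemmin, was at 7.25, 9.02 and 8.94 FPKM in shCON and 1.29, 1.05 and 1.20 FPKM under shPAX6. *OASL*, an interferon-induced gene, was at 14.8, 15.1 and 18.7 FPKM and at 2.73, 2.10 and 2.36 FPKM. *EPCAM*, the epithelial cell adhesion molecule, was at 11.7, 11.6 and 11.5 FPKM and at 7.08, 6.75 and 6.71 FPKM. In all 5 the shPAX6 values were lower without overlap, against 20% of all tested features. The 5 were picked by their r with *ZNF385A*, whose own groups lie apart, so nothing is read from this count. Their log2 fold changes ran from -2.73 to -0.63. The r with *PAX6* was 0.916 for *ZNF385A* and 0.766 for *ZNF385C*, and *ZNF385A* with *ZNF385C* gave 0.660.

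For *ZNF385C* the closest were *SMAD2* (r = 0.995), *LINC02210-CRHR1* (r = 0.994), newGene_2072 (r = 0.994), *ZNF354B* (r = 0.992) and *LXN* (r = 0.989). Their log2 fold changes were smaller, between -0.56 and -0.37. *SMAD2*, a mediator of TGF-β signaling, was at 6.30, 4.41 and 5.46 FPKM in shCON and 3.38, 4.77 and 4.25 FPKM under shPAX6, so that shCON library 1 was highest and shPAX6 library 1 lowest, as for *ZNF385C*.

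Around *ZNF385A*, 13 genes of the LNCaP table lay within 100 kb. *LOC102724050*, a long non-coding RNA on the opposite strand, covers the whole gene. It had 11 and 2 counts (log2 ratio -1.59, -5.48 to -0.07), few beside the 789 and 526 of *ZNF385A*. Whether strand was used in counting is not given, so reads of the 2 cannot be told apart. Of the neighbours with at least 10 counts, the LNCaP-ENZ library had 3 at a higher and 5 at a lower level. Past 2-fold lower were 2, *LOC102724050* and the erythroid factor gene *NFE2*, against 13.5% of all genes with at least 10 counts. *NFE2* had 16 and 5 counts, with an interval of its log2 ratio (-1.22) from -3.29 to 0.03. In DU145, 0 of 5 tested neighbours were called with limma (adjusted p under 0.05), against 1.2% of all tested features (163, which became 0 with the replicate block and from 0 to 924 when a library was left out). At an unadjusted p under 0.05 was 1 of 5, against 18.3% of all tested features. The adjacent integrin gene *ITGA5* had a log2 fold change of 0.27 (SE 0.16, limma adjusted p = 0.43) and the coatomer gene *COPZ1* -0.02 (SE 0.12, limma adjusted p = 0.96). The heterochromatin protein gene *CBX5* had -0.87 (SE 0.28, limma adjusted p = 0.17) and the splicing factor gene *HNRNPA1* 0.27 (SE 0.13, limma adjusted p = 0.33). *NFE2* had -0.47 (SE 0.24, limma adjusted p = 0.35). In LNCaP, *COPZ1* was at 3878 and 4571 counts, *ITGA5* at 1385 and 1027, *CBX5* at 8914 and 6130 and *HNRNPA1* at 10687 and 7457, all within 2-fold.

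*ZNF385B* stood more alone. Of 4 genes within 100 kb, only the splicing factor gene *CWC22* had at least 10 counts, with 167 and 88 (log2 ratio -0.72, -1.12 to -0.35), and its DU145 log2 fold change was 0.04 (SE 0.30, limma adjusted p = 0.97). The miRNA gene *MIR1258*, within the first part of *ZNF385B*, had 0 counts in both libraries, under the floor. The 3 genes near *ZNF385D* had no counts.

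Of 10 neighbours of *ZNF385C*, 7 were tested in DU145 and 1 was called, in the lower direction, as were 1.02% of all tested features. *DHX58*, which encodes the RIG-I-like receptor LGP2 of the antiviral response, fell from 2.43 to 0.412 FPKM, with a log2 fold change of -2.30 (SE 0.31, limma adjusted p = 0.025), and had 15 and 10 counts in LNCaP. Without any 1 of the shCON libraries, without shPAX6 library 3 or with the replicate number as a block (with or without the GC correction), *DHX58* was no longer called (limma adjusted p from 0.15 to 0.22). *CNP*, a myelin enzyme gene, had -0.57 (limma adjusted p = 0.097), the endosomal GTPase gene *RAB5C* -0.48 (limma adjusted p = 0.099) and the cilium gene *TTC25* -0.77 (limma adjusted p = 0.19). The limma unadjusted p was 9.97e-05 for *DHX58*, 0.0039 for *CNP*, 0.0042 for *RAB5C* and 0.020 for *TTC25*. It was 0.10 or more for the other tested neighbours, and 18.3% of all tested features had one under 0.05. The acetyltransferase gene *KAT2A* had -0.23 (limma adjusted p = 0.38), which became 0.11 after the GC correction. *DNAJC7*, a co-chaperone gene, had 0.10 (limma adjusted p = 0.79). *NKIRAS2*, an inhibitor of NF-κB signaling, overlaps the 3′ end of *ZNF385C* by 66 bases on the opposite strand. With 2458 and 2189 counts in LNCaP and a DU145 log2 fold change of 0.04 (limma adjusted p = 0.94), its values were close between the arms in both lines.

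A pair of non-coding RNAs on the strand of *ZNF385C* lie just before its counted span and inside the longer gene model. ENSG00000270010.1, 206 bases away, had 37 and 51 counts in LNCaP control and LNCaP-ENZ cells (log2 ratio 0.62, 0.01 to 1.30). ENSG00000267221.1 had 40 and 8 counts (log2 ratio -1.91, -3.44 to -1.02). They went in unlike directions, and *ZNF385C* with 13 and 46 counts had fewer counts than either in control cells. The other neighbours in LNCaP were within 2-fold, from *HSPB9* (20 and 10 counts, log2 ratio -0.71) to *KAT2A* (2047 and 2547 counts, 0.50), with *DNAJC7* at 1032 and 575, *RAB5C* at 2666 and 2713, *CNP* at 1377 and 1369 and *TTC25* at 26 and 14 counts.

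**Figure D4:**
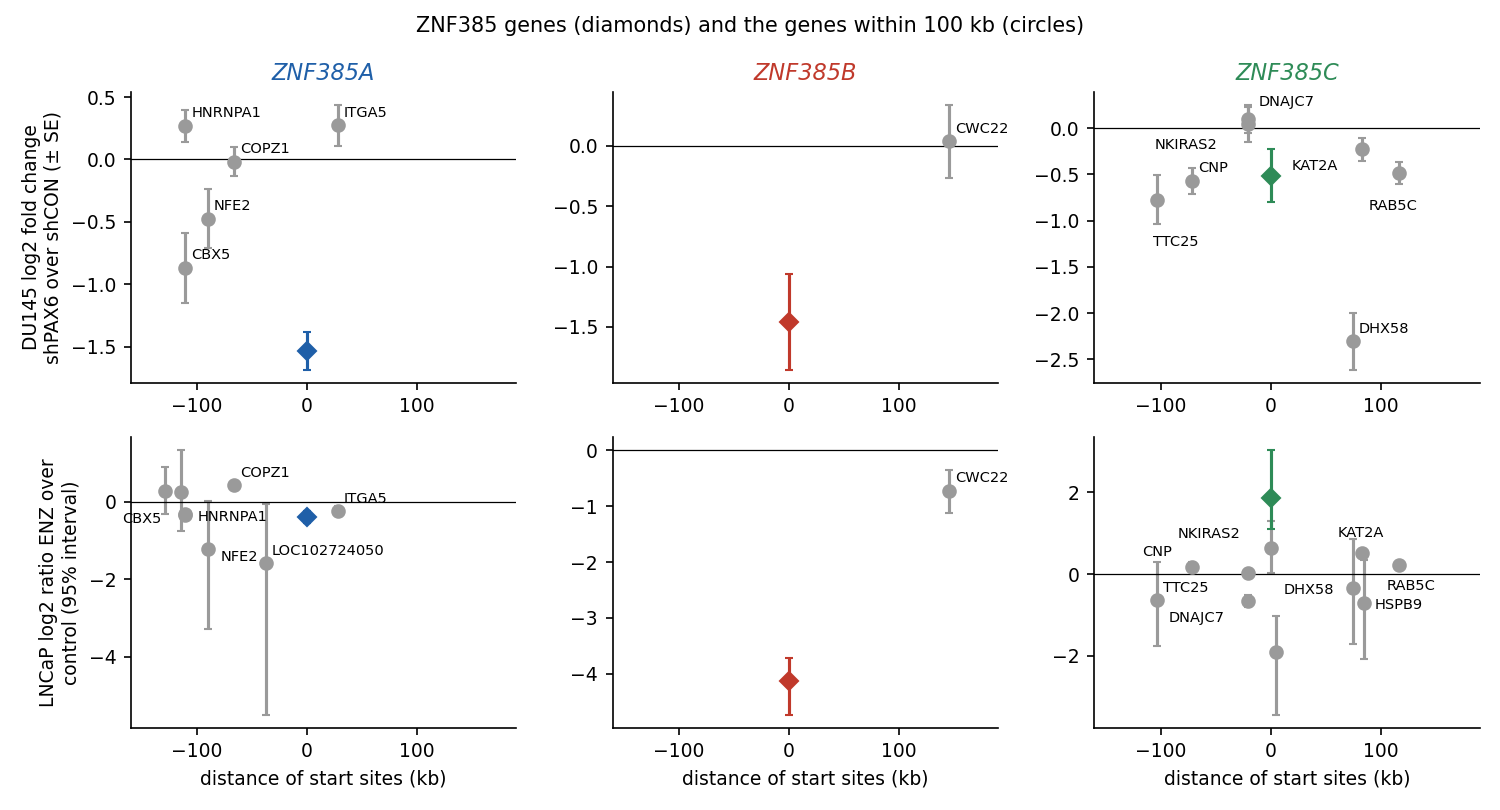
Log2 difference of 3 *ZNF385* genes (diamonds) and the genes within 100 kb (circles) against the distance of their start sites in kb (positive toward higher coordinates), in DU145 (top, ± SE) and LNCaP (bottom, 95% interval). *ZNF385A* and *ZNF385B* lie under all neighbours plotted in DU145, *ZNF385B* under *CWC22* in LNCaP, and *DHX58* under *ZNF385C* in DU145.

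The genes around ZNF385 function were followed in 5 lists of 41 genes. Of the 34 tested in DU145, 0 were called with limma, against 1.2% of all features, and 5 (14.7%) had an unadjusted p under 0.05, against 18.3% of all. The smallest adjusted p was 0.092. In LNCaP, 37 of the 41 had at least 10 counts, with 8 (21.6%) past 2-fold lower and 0 past 2-fold higher, against 13.5% and 3.76% of all genes with that many counts. Of all such genes 62.5% were lower, with a median of -0.18.

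The next list held *TP63*, *TP73*, *MDM2*, *MDM4*, *USP7* and *PPM1D*. *MDM2*, the gene of a ubiquitin ligase, had 1672 and 755 counts in LNCaP control and LNCaP-ENZ cells (log2 ratio -0.96), while in DU145 its log2 fold change was 0.11 (limma adjusted p = 0.88). *MDM4*, its close relative, had -0.13 in DU145 (limma adjusted p = 0.83), and *USP7*, the gene of a deubiquitinase, was at 18.9 ± 1.81 and 17.7 ± 3.84 FPKM with overlap (-0.11, limma adjusted p = 0.81). Both changed sign after quantile normalization and median centring. In LNCaP, *TP73* had 242 and 128 counts. The median of the list was -0.08 over 4 genes in DU145, where all features had -0.12. In LNCaP it was -0.58 over 5 genes, all of them lower, where all genes with at least 10 counts had -0.18.

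The cell cycle arrest genes, which ZNF385A is known to favour, went both ways in DU145, with 3 above and 5 under 0 and a median of -0.12. *CDKN1A*, the gene of the cyclin-dependent kinase inhibitor p21, was at 38.6 ± 2.03 and 30.2 ± 0.91 FPKM (log2 fold change -0.35, SE 0.12, limma adjusted p = 0.18). *GADD45A*, a DNA damage response gene, was at 38.1 ± 5.22 and 57.1 ± 2.99 FPKM (0.59, SE 0.14, limma adjusted p = 0.092). *SFN*, the gene of 14-3-3σ, was at 421 ± 21.4 and 491 ± 160 FPKM with overlap (0.17, limma adjusted p = 0.76), and *SESN1* had -0.43 (limma adjusted p = 0.57). In LNCaP, 7 of 8 arrest genes were lower, against 62.5% of all genes with at least 10 counts, and the median was -0.31, against -0.18. Past 2-fold lower were 2 of the 8, against 13.5% of all. *CDKN1A* had 3778 and 2173 counts (log2 ratio -0.61), *CCNG1* 3357 and 1336 (-1.14), *PLK2* 40 and 16 (-1.05) and *SESN1* 415 and 497 (0.45).

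The apoptosis genes had a median of -0.04 over 11 genes in DU145. *TP53INP1* was at 0.719 ± 0.05 and 0.358 ± 0.18 FPKM (log2 fold change -0.92, limma adjusted p = 0.25) and *PIDD1* had -0.44 (limma adjusted p = 0.27), with *PERP* at 0.25 (limma adjusted p = 0.43) and *FAS* at 0.23 (limma adjusted p = 0.71). In LNCaP, 10 of the 11 were lower, with a median of -0.73 and 4 past 2-fold, against 62.5% lower, a median of -0.18 and 13.5% past 2-fold lower over all genes with at least 10 counts. Among these were *TP53I3* with 59 and 20 counts (log2 ratio -1.30), *BBC3*, the gene of the BH3-only protein PUMA, with 113 and 40 (-1.27), and the death receptor gene *FAS* with 90 and 38 (-1.02). *AEN* was the exception, with 827 and 946 counts (0.38).

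Of the genes tied to ZNF385A in neurons and adipocytes, *ITPR1* was at 1.24 ± 0.21 and 1.80 ± 0.35 FPKM in DU145 (log2 fold change 0.50, limma adjusted p = 0.35). In LNCaP it had 484 and 566 counts (log2 ratio 0.41). The adipogenic factor genes *CEBPD* (14.1 ± 2.63 and 6.82 ± 2.68 FPKM, log2 fold change -1.10, limma adjusted p = 0.13) and *CEBPB* (-0.78, limma adjusted p = 0.28) belong to the same list, whose median was -0.54 over 6 genes in DU145. In LNCaP the list had a median of 0.25, with *CEBPD* at 463 and 531 counts (0.39), *ITPR3* at 2540 and 1823 (-0.29) and *ITPR2* at 282 and 86 (-1.50). Of the zinc finger relatives, 0 of 5 tested in DU145 were at an unadjusted p under 0.05, with log2 fold changes from -0.24 (*ZNF346*) to 0.17 (*ZMAT3*), with *ZMAT5* at -0.21 and *ZFR* at 0.02. In LNCaP they ran from -1.48 for *ZFR2*, which had only 10 and 2 counts, over *ZFR* (-0.34) and *ZMAT5* (0.02) to *ZNF346* (0.21).

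**Figure D5:**
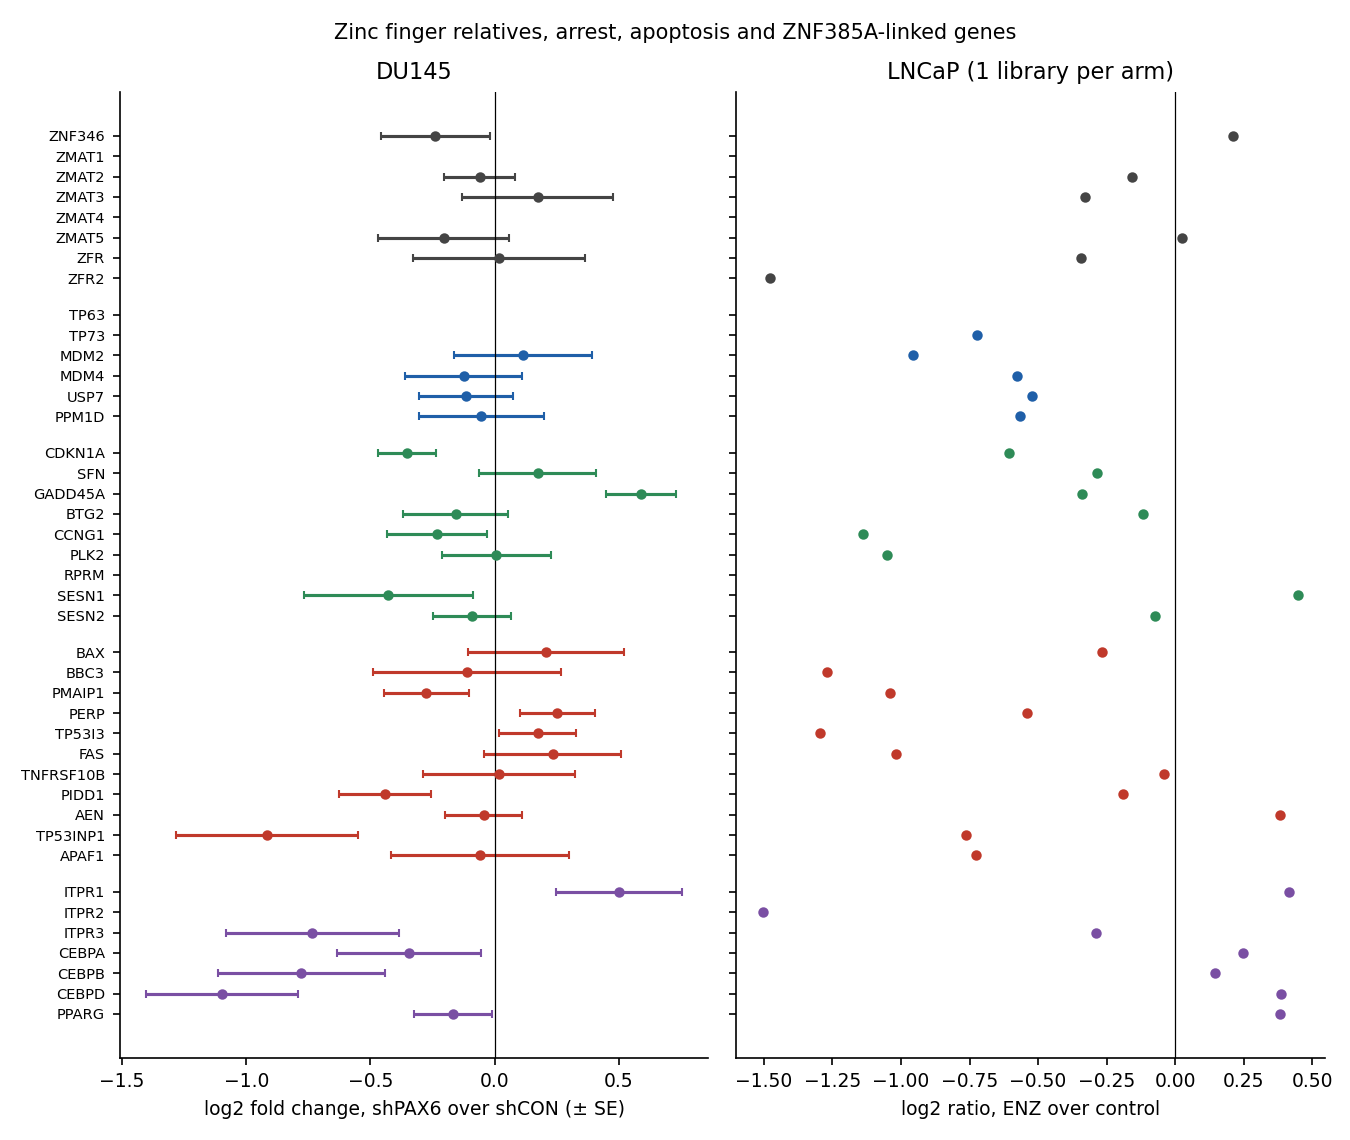
Log2 differences of the listed genes in DU145 (left, ± SE of the limma fit) and LNCaP (right, 1 library per arm, no interval drawn), from top to bottom zinc finger relatives, the list with *MDM2*, arrest genes, apoptosis genes, and IP3 receptor and adipogenic genes. A gene without a point did not pass the filter, and the apoptosis genes lie left of 0 in LNCaP in 10 of 11 cases.

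Markers of other cell types were low in DU145. The summed level of 3 leukocyte markers was between 0.749 and 0.908 FPKM in shCON and between 0.353 and 0.922 FPKM under shPAX6, with *PTPRC* and *CD3E* at 0. In LNCaP, 5 RNA polymerase III transcripts took 18.1% and 19.0% of all counts. *VWF*, an endothelial marker, had 345 and 27 counts in LNCaP control and LNCaP-ENZ cells, while *PECAM1* had 3 and 3 and *CDH5* 0 and 0. *COL1A1*, a fibroblast marker, had 456 and 231 counts with *COL1A2*, *COL3A1* and *DCN* at 0. Both *VWF* and *COL1A1* were lower together with *ZNF385B*, and the part of other cells in its ratio was not tested.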

How the data were processed

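RNA-seq was analysed in 2 tables. Per the study's methods, reads were aligned to GRCh37 with HISAT2 and quantified with StringTie. For LNCaP, raw counts were deposited for each gene, with TPM (counts per gene length, rescaled). The deposited DU145 table names no unit. Its values were read as FPKM, scaled by transcript length and library size by the authors with StringTie, of unknown depth (207 to 359 low features per pair of libraries, at most 4.72% in 1 bin of ratios, no common step). They sum to between 448901 and 570790 per library. The labels give 1 LNCaP library per arm, the methods 3 replicates, and the labels another library kit. The 6 ATAC-seq samples were not analysed here.

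Samples were grouped by the condition and number in their labels. In DU145, features averaging 0.5 FPKM or more over the 6 libraries entered limma 3.58.1 (R 4.3.3, eBayes with trend) on log2(FPKM + 0.1), two-sided, with Benjamini-Hochberg adjustment over 13574 features and a threshold of 0.05. LNCaP counts were scaled by library total, and ratios of CPM + 0.1 were given for genes with at least 10 counts in sum. TMM factors came from edgeR 4.0.16. Pseudocounts understate the change of low genes. Both steps were tested on simulated data. GC content came from the longest GENCODE v44 transcript of 88.5% of tested features (loess, span 0.5, degree 2, per library).

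The members and lists were chosen with earlier results of these data known. Named were the members, *PAX6*, the 2 largest changes per direction of each list and table, the 5 features most correlated with each tested member, and the genes within 100 kb of a member with at least 10 counts or above the DU145 filter. Marker genes and the counting context were given beside them. Some genes of the design are not reported here. Alternatives were other pseudocounts, filters and scalings, the replicate block, a GC correction and leaving out each library.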

Additional observations from a re-analysis of the deposited data

How the results depend on the processing

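All alternatives were planned. The *ZNF385A* log2 fold change in DU145 was lower in every alternative, at -1.33 with a pseudocount of 1, -1.37 after quantile normalization, -1.36 after median centring and -1.16 after the GC correction, with or without the replicate block (-1.57 to -1.51 leaving out each library). *ZNF385B* had -0.47 with a pseudocount of 1 (-1.84 to -1.22 leaving out each library), and *ZNF385C* -0.19 after the GC correction with or without the block (-0.67 to -0.34). In LNCaP, *ZNF385B* ran from -4.19 to -3.64, the latter with a pseudocount of 1, *ZNF385A* between -0.48 and -0.24, and *ZNF385C* between 1.12 and 2.01.

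Libraries with the same number did not deviate together across groups (r = -0.17, -0.37 and 0.05 for numbers 1 to 3), and not each correlated best with its own number. The highest r was 0.37, for shCON library 2 with shPAX6 library 1. Deviations within groups of 3 libraries cannot show whether libraries were paired or prepared in batches, and the labels do not say. The 163 DU145 calls became 108 without the filter, 100 after median centring, 0 with the replicate block (1568 at an unadjusted p under 0.05, 2480 without it) and 7 with the block and GC correction. Leaving out each library gave 0 to 924 calls, with 0 without shCON library 1 or 3, 5 without shCON library 2, 10 without shPAX6 library 3, 924 without shPAX6 library 1 and 899 without shPAX6 library 2. Lower calls were 85.3% of all, 68.6% after quantile normalization, 72% after median centring and 55.0% after the GC correction (222 calls). Of the listed genes 0 to 3 were called when a library was left out, 3 without shPAX6 library 1 and 1 without shPAX6 library 2, and 0 in the other alternatives. The 3328 LNCaP genes past 2-fold became 1118 with a pseudocount of 1, 1684 at a mean of at least 1 CPM and 6120 without a filter. Lower genes were 78.2% of them, 68.4% with TMM factors and 66.3% with the median set to 0. The cause of these moves was not tested, beyond the number of features or samples that a setting leaves.

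Differences near 0 changed sign. *COPZ1* became 0.16 after median centring, and 0.11 after the GC correction with or without the block, as did *KAT2A*. *ZMAT5* became 0.091 and *USP7* 0.026 in the latter 2. *MDM4* became 0.092 after quantile normalization and 0.050 after median centring, *USP7* 0.012 and 0.061, and *SFN* -0.039 after quantile normalization. Leaving out each library gave -0.048 to 0.024 for *COPZ1*, -0.24 to 0.37 for *CWC22*, -0.0041 to 0.20 for *DNAJC7*, -0.14 to 0.38 for *MDM2*, -0.074 to 0.24 for *NKIRAS2*, -0.068 to 0.40 for *SFN*, -0.26 to 0.058 for *USP7*, -0.37 to 0.40 for *ZFR*, -0.087 to 0.47 for *ZMAT3* and -0.49 to 0.074 for *ZMAT5*. *ZNF385D* and *ZNF385B* were under the filter in DU145, where the depth is unknown, so neither entered the filtered fit.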
